A study of Drosophila melanogaster with 10 samples.

Results

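The vacuolar H+ ATPase (V-ATPase) genes were taken as all genes whose symbol begins with Vha in the deposited tables, which gave 20 of 13995 genes. Levels come from RNA-seq on total RNA of whole Drosophila melanogaster males in the third larval instar, kept at 25 °C, in 5 genotypes with 2 libraries each. The genotypes, all on y w, were atf3[76] alone, atf3[76] with dfoxo[25J13]/+, atf3[76] with rel[E20]/+, atf3[76] with atf3[A]/+, and the control y w. They are written atf3[76], dfoxo/+, rel/+, atf3[A]/+ and y w below, so every genotype except y w carries atf3[76]. The labels give no molecular lesion and do not say what atf3[A] is. The design text names them biological replicates and does not state what kept the pair of a genotype apart, so p-values reflect only the spread between these libraries. By its title, the study concerns Activating transcription factor 3 in immune and metabolic balance.

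V-ATPase is a rotary proton pump. Its peripheral V1 sector, with subunits A to H, hydrolyses ATP, and its membrane V0 sector, with subunits a, c, c'', d and e, carries protons across the membrane. In every cell the pump acidifies endosomes, lysosomes and secretory vesicles. In some insect epithelia, such as the Malpighian tubule and the acid-secreting copper cells of the midgut, it also sits at high density in the plasma membrane and energises ion transport. Most Drosophila subunits are encoded by 1 abundant gene, and several have additional paralogs that are known to be restricted to few tissues, often the testis.

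The libraries were of uneven quality. FPKM counts fragments scaled to transcript length and library size, and the tables have a floor of 1. Where the remaining libraries had a median of 10 FPKM or more, atf3[76] replicate 1 was at the floor for 4.60% of genes and y w replicate 1 for 3.95%, while the range over the other 8 was 0.135% to 1.303%. In small nucleolar RNA genes of 140 bp, values step by what 1 fragment is worth. A step was 7.88 FPKM in atf3[76] replicate 1, 9.88 FPKM in y w replicate 1, and 5.002 to 5.36 FPKM in 7 others. By this estimate atf3[76] replicate 1 and y w replicate 1 were the shallower among the libraries with a comparable step. It rested on only 4 and 3 distinct values in them, and a step may hold more than 1 fragment. The step of dfoxo/+ replicate 2 was not comparable. The gene Atf3, listed as A3-3, stood at 6.09 to 15.1 FPKM in the 8 mutant libraries and at 3.28 and 4.14 FPKM in y w, which does not check the label because the lesion is not stated. All matched markers of fat body, gut, Malpighian tubule and testis were above the floor in at least 1 library, except bam of the testis. Of the neuronal markers, 6 of 11 were listed at 1 in every library.

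The 20 genes differed widely in level. The 13 genes described in the literature as forming the plasma-membrane pump of epithelia had between 35.7 and 240.0 FPKM in every library. They are Vha68-2, Vha55, Vha44, Vha36, Vha26, Vha14, Vha13 and VhaSFD of V1, and Vha100-2, Vha16, VhaPPA1-1, VhaAC39 and VhaM9.7-2 of V0. Of the 7 other members, VhaM8.9, now named ATP6AP2, an accessory protein of the pump, averaged 78.2 FPKM over the 10 libraries, and VhaM9.7-1 and Vha68-1 averaged 15.5 and 11.3 FPKM. Vha16-3, Vha16-2 and Vha100-3 averaged 6.85, 4.15 and 3.65 FPKM. Vha100-1, the a subunit of neurons, was listed at 1 in all 10 libraries; the sodium pump gene Atpalpha and the synaptic gene brp were also listed at 1 in all 10, so the entry may be a failed estimate and its level is not known. A further 14 genes now bear Vha symbols but are listed under CG numbers. They are no members, and are used below only as paralogs.

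**Figure D1:**
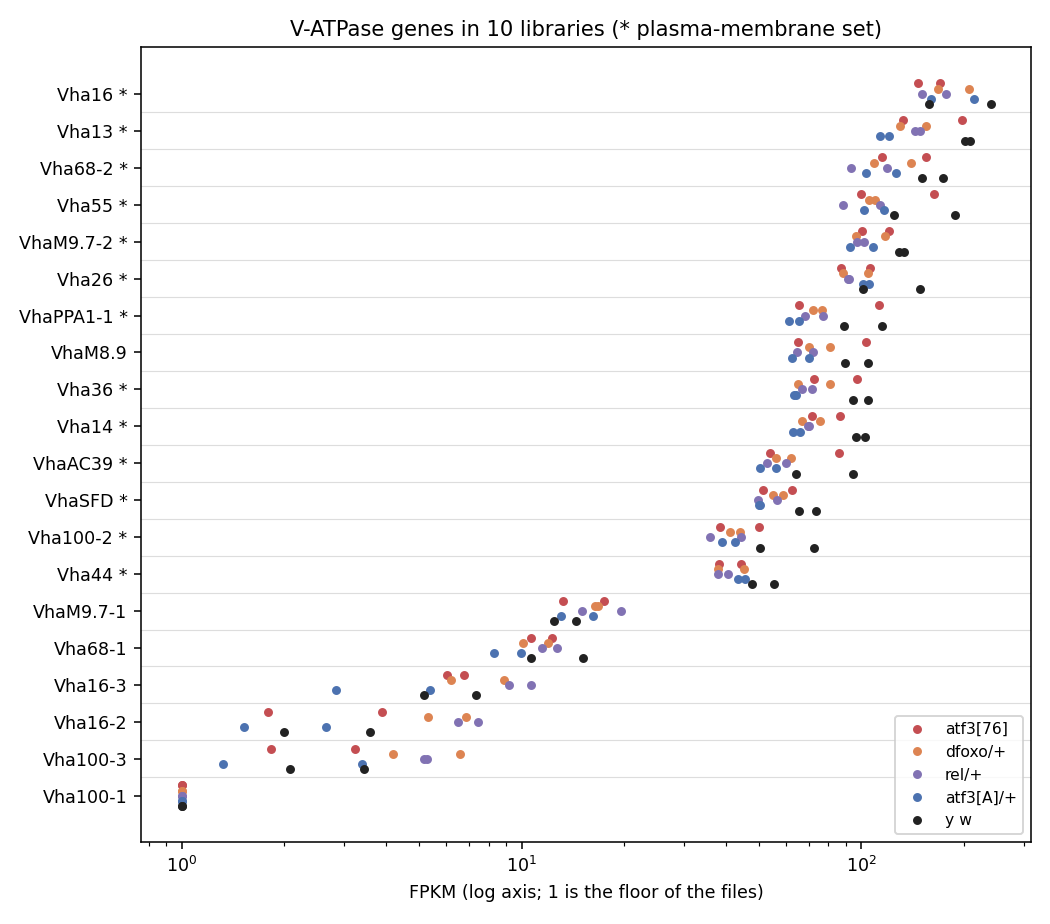
FPKM (log axis) of the 20 Vha genes in each of the 10 libraries, coloured by genotype, with the 13 genes of the plasma-membrane set marked by an asterisk. The set lies between 35.7 and 240.0 FPKM, and y w (black) lies to the right for most of it, while Vha16-2 and Vha100-3 lie highest in dfoxo/+ and rel/+.

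Every gene of the plasma-membrane set had a lower mean in each of the 4 mutant genotypes than in y w, and no single gene passed the test. The FPKM summed over the 13 genes was 1405 and 1121 in atf3[76], 1090.2 and 1277 in dfoxo/+, 1171 and 1047 in rel/+, and 1043 and 1179.9 in atf3[A]/+, against 1551 and 1530.3 in y w. The groups did not overlap in this sum. The means were 82.0%, 76.8%, 71.98% and 72.1% of the y w mean in that order. In whole larvae, fewer cells of a type and less RNA per cell cannot be told apart.

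In limma, 0 of 19 members tested were past the threshold in any of the 4 comparisons with y w, where 0.0364% of all genes were called in atf3[76], 0.204% in dfoxo/+, 0.537% in rel/+ and 0.37% in atf3[A]/+. The lowest adjusted p of a member was 1.00, 0.241, 0.155 and 0.604 in that order. At an unadjusted p under 0.05 there were 0 members in atf3[76], 1 in dfoxo/+, 6 in rel/+ and 2 in atf3[A]/+, where 3.56%, 18.1%, 25.4% and 7.7% of all genes were. The 1 in dfoxo/+ was higher, where 15.8% of all genes were. In rel/+ 4 were lower and 2 higher, where 3.02% and 22.4% of all genes were. Both in atf3[A]/+ were lower, where 3.78% of all genes were. The median log2 difference of the 13 genes from y w was −0.29 in atf3[76], −0.40 in dfoxo/+, −0.47 in rel/+ and −0.50 in atf3[A]/+, with all 13 below 0 each time. Over all genes tested the medians were 0.11, 0.32, 0.40 and 0.0052. The 4 comparisons share the same y w libraries, so their likeness is not independent.

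A background of similar level was also taken. Among the 655 other genes whose mean lay in the range of the set, 43.6 to 179 FPKM, the median log2 difference was 0.035 in atf3[76], −0.0086 in dfoxo/+, 0.023 in rel/+ and −0.18 in atf3[A]/+. In atf3[76] the median of the 13 genes was −0.47 without atf3[76] replicate 1 and −0.11 without atf3[76] replicate 2. After centring each library, the medians in dfoxo/+ and rel/+ were −0.74 and −0.88, and after quantile normalization that in atf3[A]/+ was −0.32.

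**Figure D2:**
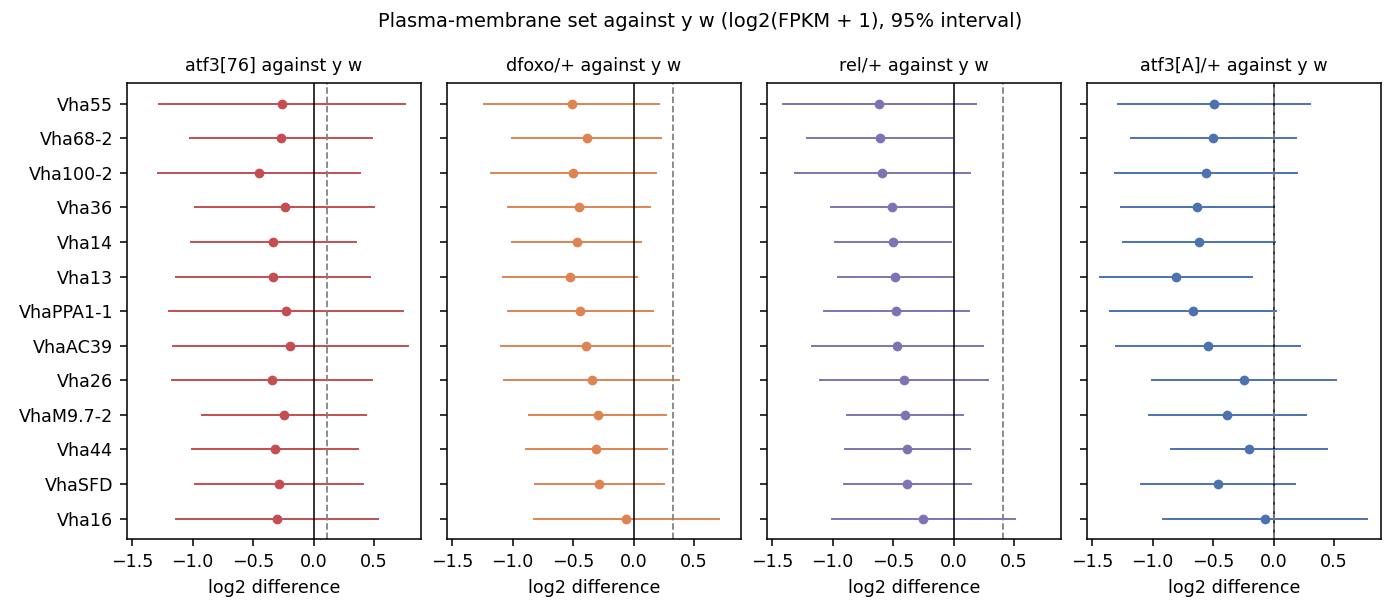
Log2 difference from y w on the log2(FPKM + 1) scale (horizontal axis) for the 13 genes of the plasma-membrane set in the 4 mutant genotypes, with 95% intervals from limma as lines and the median over all genes as a dashed line. All points lie below 0 and below the dashed line, while most intervals reach 0.

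Subunits A and B form the head of V1, where ATP is hydrolysed. Vha68-2, the catalytic A subunit (2L, 12974321 to 12978614), had 155 and 115 FPKM in atf3[76], 109 and 139.5 in dfoxo/+, 119 and 93.3 in rel/+, and 103 and 127 in atf3[A]/+, against 174 and 151 in y w. Vha55, the B subunit that completes the nucleotide-binding ring (3R, 8449483 to 8453551), had 164 and 99.5 FPKM in atf3[76], 105 and 109.7 in dfoxo/+, 113 and 88.1 in rel/+, and 102 and 117 in atf3[A]/+, against 189 and 124 in y w. For both genes 7 of the mutant libraries lay below both y w libraries, and atf3[76] replicate 1 lay between them. The log2 difference of Vha68-2 in rel/+ was −0.61 ± 0.22 (SE; unadjusted p = 0.0470, limma adjusted p = 0.194).

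The stalks of V1 link the catalytic head to the rotor and the stator. Vha36, the D subunit of the central shaft (2R, 11428921 to 11430003), had 96.9 and 72.6 FPKM in atf3[76], 65.0 and 80.6 in dfoxo/+, 71.7 and 66.9 in rel/+, and 64.1 and 63.4 in atf3[A]/+, against 94.3 and 105 in y w. Vha14, the F subunit of that shaft (2R, 11566930 to 11567585), had 86.3 and 71.4 FPKM in atf3[76], 67.1 and 75.7 in dfoxo/+, 69.4 and 70.1 in rel/+, and 62.8 and 66.0 in atf3[A]/+, against 102 and 96.1 in y w. All 8 mutant libraries lay below both y w libraries for Vha14, and 7 of them did for Vha36. Vha13, the G subunit of the peripheral stalk (3R, 15468979 to 15470126), had 198 and 133 FPKM in atf3[76], 130.04 and 155 in dfoxo/+, 149 and 144 in rel/+, and 113 and 120.4 in atf3[A]/+, against 202 and 208 in y w. Again all 8 mutant libraries were below y w. Its log2 difference in atf3[A]/+, −0.81 ± 0.25 (SE), was the farthest from 0 among the 13 genes in any comparison with y w and did not pass (unadjusted p = 0.0207, limma adjusted p = 0.604; 95% interval −1.43 to −0.18).

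Vha26, the E subunit that pairs with G in the peripheral stalk (3R, 1417452 to 1420429), had 87.2 and 106 FPKM in atf3[76], 88.1 and 105 in dfoxo/+, 91.3 and 92.2 in rel/+, and 101 and 105 in atf3[A]/+, against 101 and 148 in y w. Only rel/+ lay wholly below y w for this gene. The C and H subunits, which hold V1 to V0 and regulate that contact, were lower in level. Vha44, the C subunit (2R, 12212317 to 12224142), had 38.2 and 44.2 FPKM in atf3[76], 37.8 and 45.2 in dfoxo/+, 40.4 and 37.9 in rel/+, and 43.3 and 45.5 in atf3[A]/+, against 47.7 and 55.4 in y w. VhaSFD, the H subunit (2L, 16723137 to 16727825), had 62.6 and 51.2 FPKM in atf3[76], 55.0 and 58.7 in dfoxo/+, 56.5 and 49.6 in rel/+, and 50.4 and 49.9 in atf3[A]/+, against 73.3 and 65.5 in y w. For both, all 8 mutant libraries lay below y w. Both overlap another gene in position, Hmgs for Vha44 and CG31782 for VhaSFD, and because strandedness is not stated the values of overlapping genes are uncertain.

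Among the V0 genes of the set, only Vha16 overlapped y w in all 4 comparisons. Vha16, now Vha16-1, the c subunit of the proton-carrying ring (2R, 2512746 to 2520633), had 147 and 169.8 FPKM in atf3[76], 168 and 207 in dfoxo/+, 178 and 151 in rel/+, and 161 and 214 in atf3[A]/+, against 158 and 240.0 in y w. Its log2 differences were −0.30, −0.06, −0.25 and −0.07 in the order above. In atf3[76] its difference was near the median of the set, −0.29. VhaPPA1-1, the c'' subunit of the same ring (3R, 10728047 to 10729796), had 113 and 65.4 FPKM in atf3[76], 71.98 and 76.6 in dfoxo/+, 76.9 and 68.4 in rel/+, and 61.0 and 65.5 in atf3[A]/+, against 115 and 89.0 in y w. Of its mutant libraries, 7 were below y w and atf3[76] replicate 1 lay between the y w libraries.

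Vha100-2, the a subunit through which protons enter and leave (3R, 14216038 to 14224876), had 50.04 and 38.4 FPKM in atf3[76], 41.0 and 44.0 in dfoxo/+, 44.3 and 35.7 in rel/+, and 38.9 and 42.5 in atf3[A]/+, against 72.5 and 50.3 in y w. All 8 mutant libraries lay below y w, by a narrow margin for atf3[76] replicate 1; the gene overlaps koko. VhaAC39, the d subunit that couples the shaft to the ring (X, 3774772 to 3777004), had 86.2 and 53.7 FPKM in atf3[76], 55.9 and 62.1 in dfoxo/+, 59.9 and 52.6 in rel/+, and 50.4 and 56.0 in atf3[A]/+, against 94.2 and 64.4 in y w. The lowest and highest log2 differences of this gene from y w were −0.54 in atf3[A]/+ and −0.19 in atf3[76]. VhaM9.7-2, an e subunit (3L, 21532945 to 21533798), had 121 and 100.3 FPKM in atf3[76], 96.2 and 118 in dfoxo/+, 102 and 96.8 in rel/+, and 92.6 and 108 in atf3[A]/+, against 129 and 134 in y w, with all 8 mutant libraries below y w. The accessory gene VhaM8.9 (3R, 5086362 to 5088314) had 103 and 64.9 FPKM in atf3[76], 70.2 and 81.0 in dfoxo/+, 72.02 and 64.7 in rel/+, and 62.3 and 70.0 in atf3[A]/+, against 104 and 89.4 in y w. Here atf3[76] replicate 1 again lay between the y w libraries, slightly below y w replicate 1.

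Counted over the set, all 8 mutant libraries were below both y w libraries for 6 of 13 genes, Vha13, Vha14, Vha44, VhaSFD, Vha100-2 and VhaM9.7-2. This held for 3.11% of all genes above 1 in at least 1 library and for 13.4% of the 655 other genes in the range of the set. By genotype, 6 of 13 were below y w without overlap in atf3[76], 11 in dfoxo/+, 12 in rel/+ and 11 in atf3[A]/+. The share of all genes was 5.73%, 9.3%, 8.72% and 17.6%, and that of genes in the same range of level 16.8%, 31.9%, 30.7% and 39.1%.

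A contrast of the 4 mutant genotypes together against y w, in 1 limma model of all 10 libraries, was added after seeing the data. It called 0 of 19 members (0.545% of all genes), and 7 of 19 had an unadjusted p under 0.05, where 16.9% of all genes did. These 7 were Vha14, Vha13, Vha36, Vha100-2, VhaSFD, VhaM9.7-2 and Vha68-2, all lower, where 4.65% of all genes were. Vha14 had the smallest p, with a log2 difference of −0.48 ± 0.12 (SE; 95% interval −0.77 to −0.20; unadjusted p = 0.00517, limma adjusted p = 0.164). Vha16 stood at −0.17 ± 0.20 (SE; 95% interval −0.65 to 0.31). The median over the 13 genes was −0.44, and it was −0.36 without y w replicate 1, −0.50 without atf3[76] replicate 1 and −0.39 without both. In the authors' deposited table the calls for members were 5 down in atf3[A]/+, 3 down and 3 up in rel/+, 2 up in dfoxo/+ and 0 in atf3[76]. Vha16-3 bore the call QCNP in atf3[A]/+. No source used here states the rule behind these calls. The share of all genes with each call was not taken, so these counts are not read as a result about the members.

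The order of the subunits by level was broadly alike among libraries, but Vha55 ranked from 2 to 6 and Vha26 from 4 to 8. In replicate 1 of both atf3[76] and y w, Vha55 ranked 2, Vha16 ranked 4 and Vha26 ranked 8. In replicate 2 of both they ranked 6, 1 and 4. Vha16 ranked 1 to 4 of 13, Vha13 1 to 3 and Vha68-2 2 to 4, while Vha44 and Vha100-2 ranked 12 or 13 in every library. FPKM is scaled to length, so these levels can be compared between genes, with less certainty for the overlapping genes Vha44, VhaSFD and Vha100-2. The ring holds several copies of c, and A, B, E and G are each present in several copies per pump. Whether copy number bears on these ranks was not tested. No order can be given between Vha44 and Vha100-2, which exchanged ranks among libraries, or among VhaPPA1-1, Vha36 and Vha14, which ranked 6 to 9. Across the 10 libraries the ratio of the highest to the lowest value was 1.44 for VhaM9.7-2, the smallest of the 13, and 2.15 for Vha55, the largest.

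The ratio of the 2 libraries varied by gene within atf3[76] and within y w. In atf3[76], Vha55 was 1.647 times as high in replicate 1 as in replicate 2, VhaAC39 1.60 times, Vha100-2 1.303 times and VhaPPA1-1 1.73 times, whereas Vha16 and Vha26 stood at 0.864 and 0.822 times. In y w the same ratios were 1.52 for Vha55, 1.46 for VhaAC39, 1.44 for Vha100-2 and 1.29 for VhaPPA1-1, with 0.659 for Vha16 and 0.680 for Vha26. Vha13, Vha36 and VhaM9.7-2 lay on opposite sides of 1, at 1.49, 1.34 and 1.21 in atf3[76] and 0.970, 0.903 and 0.963 in y w. Pearson's r between the log2 ratios of these 2 genotypes was 0.84 over the 13 genes, as a description; the points of a genotype share their libraries. For the other pairs of genotypes it ran from −0.52 to 0.68. By the estimate from small nucleolar RNA genes, replicate 1 was the shallower library in both genotypes. The part of depth in this pattern was not tested.

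**Figure D3:**
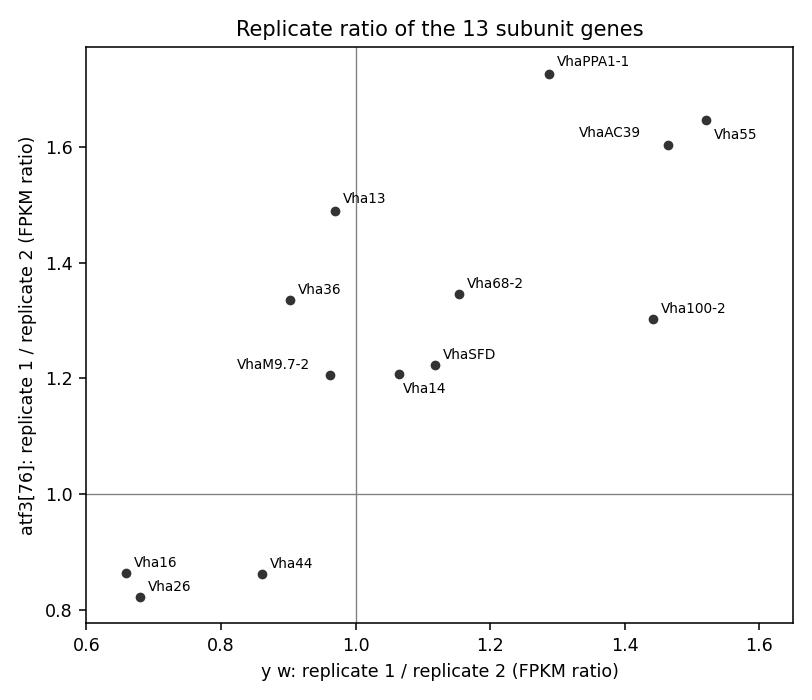
Ratio of replicate 1 to replicate 2 in FPKM for the 13 genes of the plasma-membrane set, in atf3[76] (vertical axis) and y w (horizontal axis), with lines at a ratio of 1. Vha55, VhaAC39, VhaPPA1-1 and Vha100-2 lie above 1 in both genotypes, Vha16, Vha26 and Vha44 below 1 in both, and Vha13, Vha36 and VhaM9.7-2 above 1 in atf3[76] and below 1 in y w.

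Next, dfoxo/+, rel/+ and atf3[A]/+ were compared directly with atf3[76]. In limma, 0 of 19 members were past the threshold with dfoxo/+ (0.0519% of all genes called), rel/+ (0.0865%) or atf3[A]/+ (0.0779%), and 1, 1 and 0 members had an unadjusted p under 0.05, where 5.38%, 7.41% and 8.01% of all genes did. Of all genes 4.41% and 6.32% were higher at that p in dfoxo/+ and rel/+. The median log2 difference of the 13 genes was −0.12, −0.15 and −0.22 in that order, against 0.16, 0.24 and −0.10 over all genes. Without atf3[76] replicate 1 these medians were 0.097, −0.015 and −0.015. The member with an unadjusted p under 0.05 was Vha16-2 in both cases, higher with dfoxo/+ by a log2 difference of 0.93 ± 0.34 (SE; unadjusted p = 0.0297, limma adjusted p = 0.656) and with rel/+ by 1.11 ± 0.34 (SE; unadjusted p = 0.0145, limma adjusted p = 0.485).

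The 3 lowest members that were measured had their highest value in dfoxo/+ or rel/+ and their lowest in atf3[A]/+ replicate 2. Vha16-2 (3L, 11468057 to 11468652), a c subunit paralog, had 1.79 and 3.88 FPKM in atf3[76], 6.88 and 5.30 in dfoxo/+, 6.49 and 7.43 in rel/+, and 2.65 and 1.52 in atf3[A]/+, against 3.58 and 2.001 in y w. The 4 libraries of dfoxo/+ and rel/+ lay above all other 6. Its log2 difference from y w was 0.93 ± 0.30 (SE) in dfoxo/+ (unadjusted p = 0.0281, limma adjusted p = 0.241) and 1.0997 ± 0.28 in rel/+ (unadjusted p = 0.0141, limma adjusted p = 0.155). Vha100-3 (2R, 14796504 to 14799219), an a subunit paralog that overlaps sano, had 1.83 and 3.23 FPKM in atf3[76], 6.61 and 4.20 in dfoxo/+, 5.15 and 5.27 in rel/+, and 3.39 and 1.32 in atf3[A]/+, against 3.45 and 2.08 in y w. Here too dfoxo/+ and rel/+ lay above the other 6 libraries, with a log2 difference from y w of 0.75 ± 0.25 in rel/+ (unadjusted p = 0.0372, limma adjusted p = 0.182). Vha16-3 (3L, 11466390 to 11467072), next to Vha16-2 with a gap of 984 bp, had 6.78 and 6.02 FPKM in atf3[76], 8.89 and 6.21 in dfoxo/+, 9.20 and 10.6 in rel/+, and 5.38 and 2.85 in atf3[A]/+, against 7.34 and 5.15 in y w. Only rel/+ stood wholly above y w for this gene.

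VhaM9.7-1 (3L, 4186017 to 4186816), an e subunit paralog now named VhaM9.7-c that overlaps CG18675 and Teh2, had 13.2 and 17.5 FPKM in atf3[76], 16.5 and 16.7 in dfoxo/+, 15.0 and 19.7 in rel/+, and 16.2 and 13.1 in atf3[A]/+, against 12.5 and 14.5 in y w. Vha68-1 (2L, 13000765 to 13004142), a second A subunit gene, had 12.3 and 10.7 FPKM in atf3[76], 11.9 and 10.1 in dfoxo/+, 12.7 and 11.5 in rel/+, and 9.93 and 8.32 in atf3[A]/+, against 15.2 and 10.7 in y w. Neither had an unadjusted p under 0.05 in any comparison. Paralogs that are alike in sequence may trade reads in the authors' counting, so their low levels are uncertain beside an abundant copy.

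Counting paralogs by their present names, 14 genes of the family averaged under 10 FPKM without being listed at 1 throughout, 3 of them members. Of these 14, 8 were higher without overlap in dfoxo/+ than in y w and 11 in rel/+, where 48.2% and 56.6% of all genes were. This list was drawn up after its values were seen. In 7 of the 14, the 4 libraries of dfoxo/+ and rel/+ lay above all other 6, as in 14.1% of all genes. In 10 of the 14, atf3[A]/+ replicate 2 was lower than every other library, as in 26.1% of all genes. Their summed level was 53.7 and 59.4 FPKM in atf3[76], 90.2 and 70.5 in dfoxo/+, 81.5 and 87.4 in rel/+, and 47.5 and 28.3 in atf3[A]/+, against 60.9 and 44.2 in y w. CG14909, now VhaM9.7-d, had the smallest p of them against y w, with log2 differences of 1.20 ± 0.21 (SE) in dfoxo/+ and 1.12 ± 0.19 in rel/+ (limma adjusted p = 0.158 and 0.145). CG8310, now Vha36-3, had another order, highest at 16.8 FPKM in atf3[76] replicate 1.

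Testis markers were read beside these paralogs. The 16 matched markers, of which 1 (bam) was listed at 1 in all libraries, summed to 203 and 297 FPKM in atf3[76], 438 and 360.2 in dfoxo/+, 358 and 458 in rel/+, and 226 and 123 in atf3[A]/+, against 272 and 206 in y w. Both dfoxo/+ libraries were above both y w libraries for 10 of the 16 markers and both rel/+ libraries for 11, where 48.2% and 56.6% of all genes were. For 10 markers atf3[A]/+ replicate 2 was the lowest library, where 26.1% of all genes were. In limma, 0 of 15 markers tested passed against y w, while 8 in dfoxo/+ and 7 in rel/+ were higher at an unadjusted p under 0.05, where 15.8% and 22.4% of all genes were. The part of testis RNA in the paralog values was not tested.

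**Figure D4:**
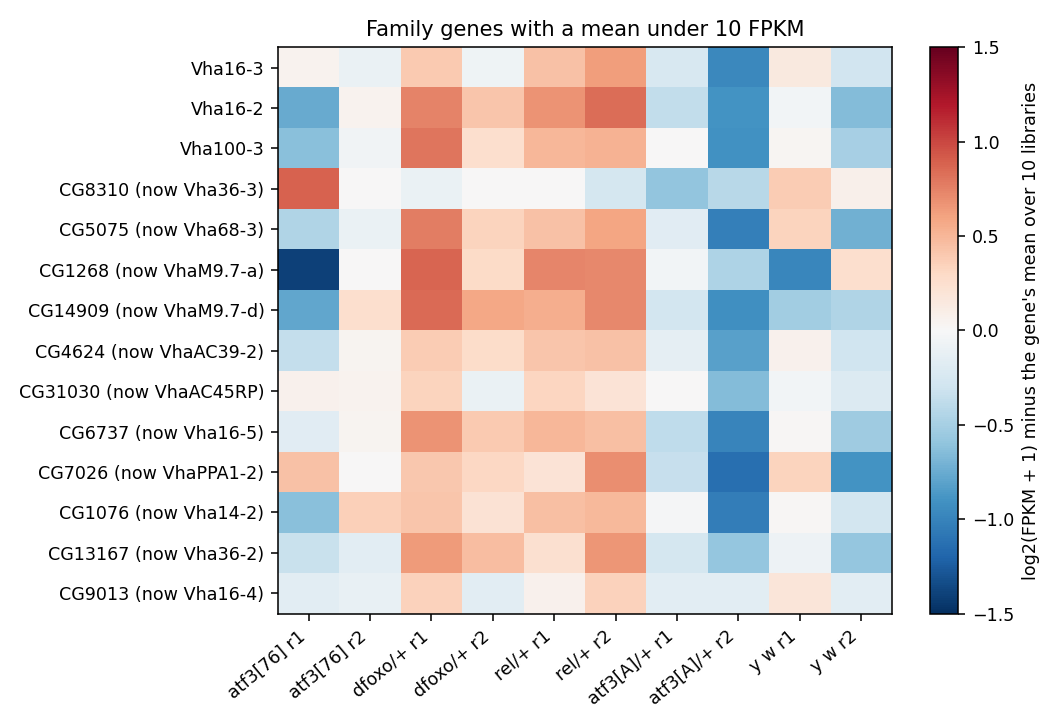
Log2(FPKM + 1) minus each gene's mean over the 10 libraries (colour scale) for the 14 family genes averaging under 10 FPKM, with libraries as columns. In 7 of the 14 genes the 4 dfoxo/+ and rel/+ libraries are the highest, and 10 are lowest in atf3[A]/+ replicate 2 alone.

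For each subunit with paralogs, 1 gene carried most of the transcript level, except for subunit a. Vha68-2 made up 82.2% to 92.3% of the summed FPKM of A subunit genes over the libraries, Vha36 84.2% to 91.1% of D, Vha14 93.4% to 98.4% of F and Vha16 85.6% to 97.0% of c. VhaPPA1-1 held 91.6% to 98.5% of c'', VhaAC39 89.4% to 96.5% of d and VhaM9.7-2 73.6% to 88.5% of e. Of the a subunit genes, Vha100-2 held 37.9% to 47.7%, CG12602, now Vha100-5, 34.2% to 42.7%, and CG7678, now Vha100-4, 13.5% to 19.9%. CG12602 had 49.97 and 33.3 FPKM in atf3[76], 35.4 and 43.9 in dfoxo/+, 34.5 and 33.8 in rel/+, and 36.96 and 44.03 in atf3[A]/+, against 52.9 and 44.9 in y w. Vha100-4 is known from the acid-secreting region of the midgut, and its gene had 23.9 and 14.7 FPKM in atf3[76], 16.6 and 23.1 in dfoxo/+, 15.95 and 13.8 in rel/+, and 12.5 and 14.3 in atf3[A]/+, against 22.3 and 20.4 in y w. Only rel/+ and atf3[A]/+ lay wholly below y w for CG7678, which overlaps cona in position, so its values are uncertain.

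Several paralogs are neighbours in the genome and differ widely in level. CG5075, now Vha68-3, lies 170 bp from Vha68-2, whose mean over the 10 libraries was 21.5 times as high (128.5 and 5.97 FPKM). CG7026, now VhaPPA1-2, lies 2047 bp from VhaPPA1-1, whose mean was 21.1 times as high. CG7678 lies 512 bp from Vha100-2, whose mean was 2.58 times as high. The gaps are those of the deposited dm3 coordinates.

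Other genes of the pathway were taken from 3 lists. Lysosomal enzymes and membrane proteins, whose compartment the pump acidifies, had medians above 0 against y w in all 4 genotypes, at 0.42, 0.63, 0.71 and 0.45 on the log2 scale, with 13 of 14, 15 of 15, 15 of 15 and 12 of 15 tested genes above 0. Of all genes tested, 29.9%, 21.1%, 18.0% and 49.4% were below 0 in these comparisons. The summed level was 785 and 717 FPKM in atf3[76], 945 and 671 in dfoxo/+, 761 and 1024 in rel/+, and 981 and 533 in atf3[A]/+, against 648 and 432 in y w. In this sum only atf3[A]/+ overlapped y w. Some of its entries were at the floor in single libraries, such as Cp1 in atf3[A]/+ replicate 2 and lt in y w replicate 1. How far the overlap depended on such entries was not tested. In limma 1 gene passed, in rel/+ and in atf3[A]/+, Hexo1, a beta-hexosaminidase. It was listed at 25.0 and 26.4 FPKM in rel/+ and at 39.4 and 27.2 in atf3[A]/+, and at 1 in atf3[76] and in y w (limma adjusted p = 0.0134 and 0.0141 against y w). In dfoxo/+ it was listed at 28.2 and 1, an entry at 1 may be a failed estimate, and the gene overlaps CG15012, so no fold is given. Cp1, a cathepsin L that overlaps CG42806, had 140.1 and 119.9 FPKM in atf3[76], 148 and 92.4 in dfoxo/+, and 120.2 and 175 in rel/+, against 79.8 and 56.9 in y w, and its adjusted p was 0.159 at the lowest (limma, rel/+). In atf3[A]/+ it was listed at 173 and 1 FPKM. Rab7, the late endosome GTPase, had a log2 difference of 0.87 ± 0.21 (SE) in rel/+ (limma adjusted p = 0.155).

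**Figure D5:**
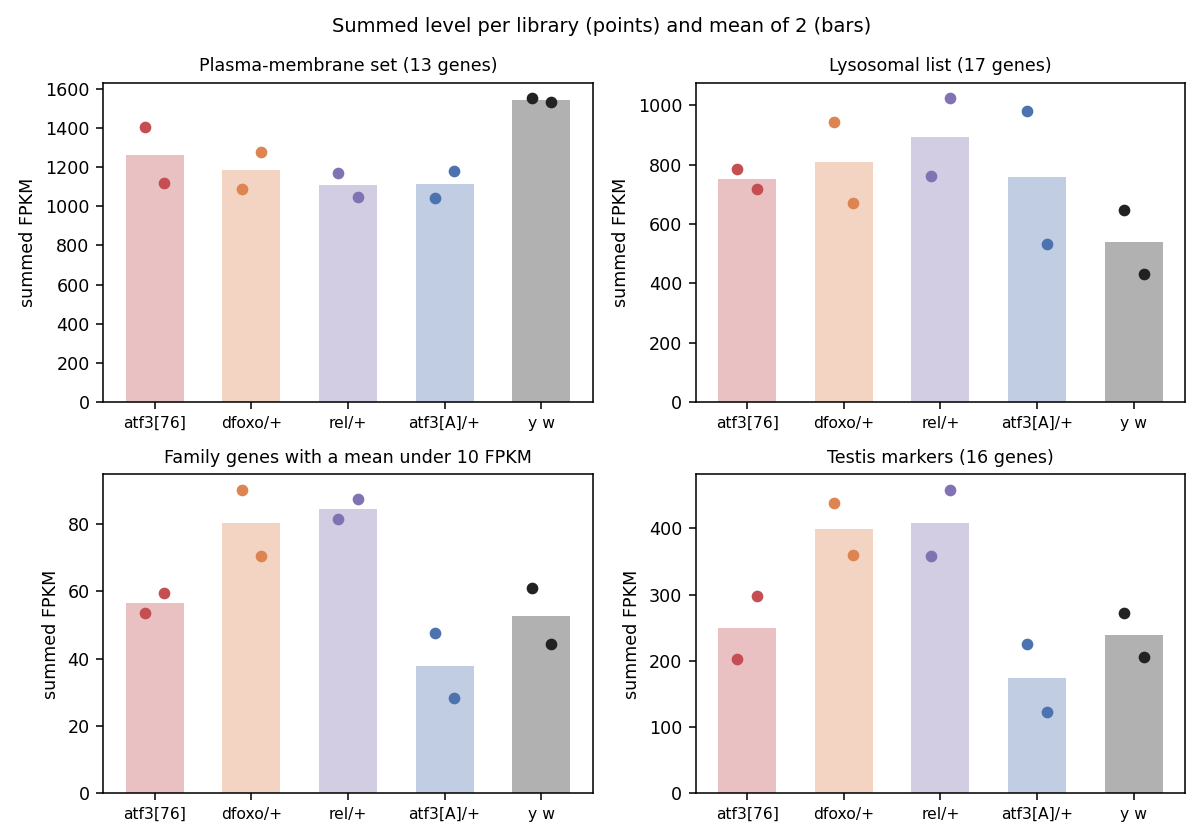
Summed FPKM per library (points) and its mean over the 2 libraries of a genotype (bars) for the plasma-membrane set, the lysosomal list, the 14 low family genes and the testis markers. The plasma-membrane set is highest in y w at 1551 and 1530.3, the lysosomal list is lowest in y w on average, and the lower 2 panels both peak in dfoxo/+ and rel/+.

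Among carbonic anhydrases and ion transporters of acid-secreting epithelia, 0 of 13 genes tested in limma passed in any comparison with y w. At an unadjusted p under 0.05 there were 1, 1, 2 and 1, all higher. Of all genes, 3.56%, 18.1%, 25.4% and 7.7% had such a p in either direction. In dfoxo/+ and rel/+, 15.8% and 22.4% of all genes were higher at that p. CAH2, a carbonic anhydrase, had 34.7 and 31.4 FPKM in atf3[76], 36.3 and 30.1 in dfoxo/+, 35.7 and 35.4 in rel/+, and 25.7 and 18.6 in atf3[A]/+, against 19.0 and 15.5 in y w. Its log2 difference was 1.01 ± 0.20 (SE) in rel/+ (limma adjusted p = 0.149). Nhe3, a sodium-proton exchanger, followed with 0.79 ± 0.21 in rel/+ (limma adjusted p = 0.155). The list's medians were 0.12, 0.33, 0.40 and 0.31 on the log2 scale, against 0.11, 0.32, 0.40 and 0.0052 over all genes tested. Regulators of the pump and of nutrient sensing at the lysosome, 6 genes that included Rbcn-3A, Rbcn-3B, Mitf, Tor and raptor, had 0 calls and 0 unadjusted p under 0.05, with medians of −0.025, 0.33, 0.32 and 0.30.

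Markers of cell types were read beside the pump genes. Over all genes tested, the median log2 differences from y w were 0.11, 0.32, 0.40 and 0.0052 in atf3[76], dfoxo/+, rel/+ and atf3[A]/+. Malpighian tubule markers (7 tested) had median log2 differences of 0.098, −0.030, 0.17 and −0.11 from y w, and their summed level was 133 and 135 FPKM in atf3[76], 119.99 and 132 in dfoxo/+, 145 and 110.4 in rel/+, and 122 and 106 in atf3[A]/+, against 138 and 117 in y w. Gut markers (8 tested) had medians of 0.20, 0.20, 0.078 and −0.057. Their sum was 2762 and 908 FPKM in atf3[76], 1830.1 and 1901 in dfoxo/+, 1935 and 1786 in rel/+, and 1421 and 1673 in atf3[A]/+, against 3551 and 1877 in y w, with lab, the copper cell factor, at or below 2.20 FPKM throughout. Fat body markers (6 tested) had medians of 0.020, 0.27, −0.094 and 0.24, and neuronal markers (4 or 5 tested) 0.065, 0.62, 0.48 and 0.49. No gene of these 4 lists passed the test, and their part in the values of the pump genes was not tested.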

How the data were processed

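Transcript levels were read in FPKM (fragment counts relative to transcript length and sequencing depth), 1 value per gene and library, which the authors deposited in 4 tables with identical y w columns. The tools TopHat 1.3.2 and Cufflinks 1.1.0 are listed per the submitters' processing notes, and the design text gives the build as BDGP R5 (dm3). No source used here states the annotation, the strandedness or any filter. The authors also deposited a score, a signed fold change, with a call of regulation, used here only as theirs. Records sharing a symbol (94 symbols) were reduced to the record of highest mean. No read depth is given, so no counting interval was computed. Genotypes were compared with limma 3.58.1 (R 4.3.3), checked on simulated data, two-sided, on log2(FPKM + 1) over genes above 1 FPKM in at least 1 library of the fit, with Benjamini-Hochberg adjustment over all of them and a threshold of 0.05. Comparisons with y w used those 2 groups alone, and comparisons with atf3[76] used all 5 groups. This scale understates changes of low genes. Values were printed for each library for members of the plasma-membrane set, members averaging at least 5 FPKM in a genotype and members with an unadjusted p under 0.05. The members and lists were chosen with earlier results of these data known. Present names were taken from FlyBase identifiers in Ensembl's table and RefSeq synonyms; coordinates are those of the deposited tables. No sequence was used here.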

Additional observations from a re-analysis of the deposited data

How the results depend on the processing

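The count of Vha members past the threshold in limma was 0 under each of 13 alternatives in each of the 7 comparisons, and under 3 for the joint contrast, chosen after seeing the data. With the replicate number as a block (replicate block) the count of members called was 0 in every comparison. Same-numbered libraries did not deviate together in all pairs of genotypes (correlations from −0.23 to 0.44, highest for atf3[76] and y w), so the numbers were not taken as pairs, and the labels do not say what they mark. For atf3[76] and y w alone, same-numbered libraries had correlations (Pearson, log2 values over genes) of 0.934 and 0.934, against 0.892 between the 2 atf3[76] libraries and 0.921 between the 2 y w libraries. Within same-numbered libraries, atf3[76] was below y w both times for 12 of 13 genes of the set and for 11.3% of all genes. The plasma-membrane median against y w stayed below 0 in all 13 alternatives of each of the 4 comparisons. Leaving out 1 library it ran from −0.47 to −0.11 in atf3[76], from −0.49 to −0.30 in dfoxo/+, from −0.51 to −0.42 in rel/+ and from −0.62 to −0.40 in atf3[A]/+. Against atf3[76] it ran from −0.27 to 0.097 in dfoxo/+, from −0.32 to −0.015 in rel/+ and from −0.42 to −0.015 in atf3[A]/+. It moved by more than the replicate spread with median centring in dfoxo/+ and rel/+ against y w (−0.74 and −0.88) and in rel/+ against atf3[76] (−0.40). It did so with quantile normalization in atf3[A]/+ against y w (−0.32) and against atf3[76] (0.034). Without y w replicate 1 and atf3[76] replicate 1 it was −0.40 in atf3[A]/+ against y w, and 0.097 in dfoxo/+ and −0.015 in atf3[A]/+ against atf3[76]. The cause was not tested. By the estimate from small nucleolar RNA genes, a fragment was worth more FPKM in atf3[76] replicate 1 and y w replicate 1. The counting error this gives was not measured.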
